A study of Homo sapiens with 9 samples.

Results

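The core circadian clock genes examined here are 10 genes of the negative side of the clock and its output: PER1, PER2, PER3, CRY1, CRY2, NR1D1, NR1D2, BHLHE40, BHLHE41 and DBP. Their rows were taken by gene symbol, and all 10 were found among the 27059 genes of the deposited table. Their levels were read in 9 RNA sequencing libraries of PC9/GR, a human lung adenocarcinoma cell line with acquired resistance to the EGF receptor kinase inhibitor gefitinib. There were 3 groups of 3 libraries. Cells of the shNC group carried a control short hairpin RNA, and those of the other groups carried either hairpin of a pair aimed at HUMT, a long noncoding RNA. These are called sh1-HUMT and sh2-HUMT. All groups grew in RPMI 1640 with fetal bovine serum at 37 °C, and no label gives a synchronizing treatment, a time of day or the time since the last medium change. In the table itself the columns are headed A549 (a different lung line) and Si, not PC9/GR and sh, so that these are PC9/GR cells is known from the sample labels only. Whether replicates are separate cultures is not stated, so the spread behind each p-value is that among these libraries and may be technical.

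In mammalian cells the clock is a feedback loop of transcription. CLOCK or NPAS2 pairs with ARNTL (BMAL1) or ARNTL2 and activates genes through the E-box sequence CACGTG. The PER and CRY proteins made from those genes return to the nucleus and repress the activators. NR1D1 and NR1D2 (REV-ERB alpha and beta) repress ARNTL, BHLHE40 and BHLHE41 (DEC1 and DEC2) compete at E-boxes, and DBP, a PAR bZIP factor, drives genes with a D-box. PER1 and PER2 are also known as immediate responders to serum, cAMP, glucocorticoid and stress, so they are set beside the other clock genes below.

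Library totals lay between 21891100 and 22159900 estimated counts, and the clock genes held from 47 to 9800 counts in a library. Epithelial markers (5 genes) summed to 3300 to 3480 CPM (counts scaled to a common library size) in shNC. They summed to 2810 to 2980 CPM in sh1-HUMT and 2920 to 2950 CPM in sh2-HUMT, so the sum was lower in both. KRT8 and KRT18 made up most of it, and CDH1 went the other way (102 CPM in shNC, 128 in sh1-HUMT, 127 in sh2-HUMT). The 4 fibroblast markers, nearly all COL1A1, summed to 16.2 to 20.2, 21.1 to 22.6 and 24.2 to 25.7 CPM, with DCN at or near 0. The part of either in the clock gene values was not tested. The 4 matched markers of the lung lineage summed to between 2.65 and 3.50 CPM, and the defining lung transcription factor NKX2-1 was close to 0. The targeted RNA is listed as LINC00857, which has HUMT as a synonym. It stood at 9.24 ± 0.679 CPM in shNC, 9.61 ± 0.465 CPM in sh1-HUMT and 8.95 ± 0.575 CPM in sh2-HUMT (SD, n = 3 each). It did not pass the test in either comparison with shNC (edgeR adjusted p = 0.685 and 0.740). Directions below are therefore those between the labelled groups, with no loss of HUMT measured in either. Both comparisons use the same 3 shNC libraries, so they are not independent of each other.

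The clock genes did not move as a block. PER2 rose and BHLHE40 and NR1D2 fell in both hairpin groups, PER1 and DBP rose by smaller amounts, and PER3, CRY1 and CRY2 passed the test in neither. In sh1-HUMT against shNC, 3 of the 10 were higher (PER1, PER2 and DBP) and 4 lower (NR1D1, NR1D2, BHLHE40 and BHLHE41) at an adjusted p under 0.05 in edgeR, where 31.9% of the 18540 genes tested passed (15.7% higher and 16.3% lower). In sh2-HUMT against shNC, 3 were higher (the same genes) and 2 lower (NR1D2 and BHLHE40), where 32.5% of all genes passed (15.9% higher and 16.5% lower). The 3 hairpin libraries lay wholly outside the 3 control libraries for 7 of the 10 in sh1-HUMT, beside 44.3% of all tested genes, and for 7 in sh2-HUMT, beside 46.5%. All 10 passed the filter on low counts, so none is missing from these counts. In sh1-HUMT the higher count was 1 without shNC replicate 1 or 3 or sh1-HUMT replicate 1 or 2, and the lower count was 2 without shNC replicate 3 or sh1-HUMT replicate 1. The median log2 fold change of the 10 was -0.07 in each comparison, beside a median of all tested genes within 0.01 of 0. The median size of a change among all called genes was 0.29 (sh1-HUMT) and 0.30 (sh2-HUMT) on the log2 scale, so PER2, BHLHE40 and NR1D2 lay above the typical called gene and PER1 and DBP below it. As these are whole cultures, more RNA per cell and more cells expressing a gene cannot be told apart.

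**Figure D1:**
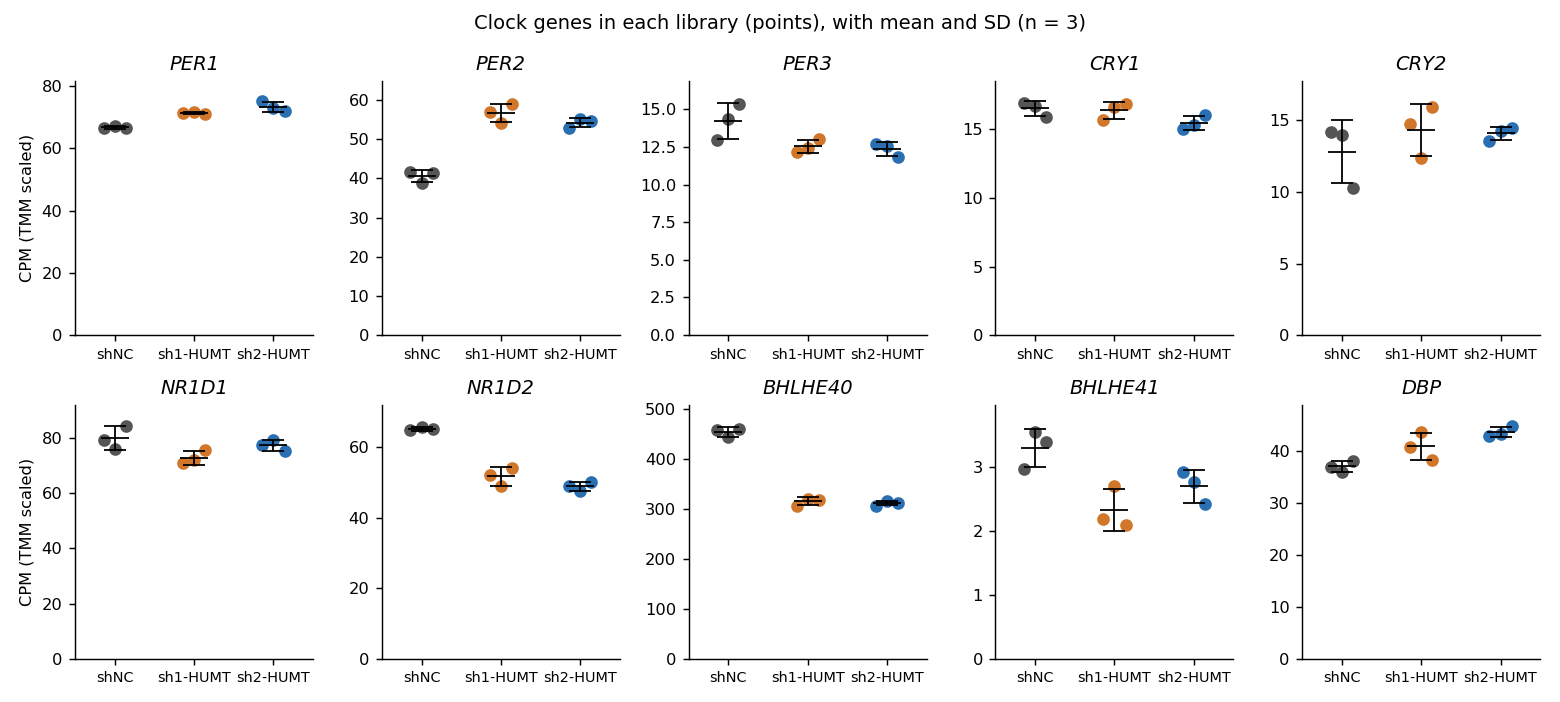
Level of each clock gene in CPM (vertical axes start at 0 and differ between panels) in the 3 libraries of shNC, sh1-HUMT and sh2-HUMT; points are libraries, bars are mean and SD. PER2 stands higher and BHLHE40 and NR1D2 stand lower in all 6 hairpin libraries than in any shNC library, while CRY1 and CRY2 overlap between groups.

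Among the period genes, whose proteins form the repressor complex with the CRY proteins, PER2 showed the largest rise. PER2 stood at 41.6, 38.7 and 41.5 CPM in shNC, at 57.0, 54.2 and 58.9 CPM in sh1-HUMT, and at 52.9, 55.2 and 54.7 CPM in sh2-HUMT. The lowest hairpin library was above the highest control library, and the hairpin groups overlapped each other. This was a 1.4-fold rise in sh1-HUMT (log2 fold change 0.48, SE 0.0453, 95% interval 0.38 to 0.58, edgeR adjusted p = 8e-06) and a 1.34-fold rise in sh2-HUMT (0.42, SE 0.0454, 95% interval 0.32 to 0.52, adjusted p = 2.36e-05). Of all tested genes, 7.76% were at least as far up in sh1-HUMT and 11.1% in sh2-HUMT. The rise passed the test under all 19 alternative settings in both comparisons.

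PER1, a period gene that many stimuli induce rapidly in other systems, differed by less. It stood at 66.6, 67.2 and 66.4 CPM in shNC, at 71.3, 71.7 and 71.1 CPM in sh1-HUMT, and at 75.1, 72.9 and 72.0 CPM in sh2-HUMT. No 2 groups overlapped, and the spread within a group was small (SD 0.439, 0.315 and 1.62 CPM). The log2 fold change was 0.10 in sh1-HUMT (SE 0.0318, 95% interval 0.03 to 0.17, edgeR adjusted p = 0.0345) and 0.14 in sh2-HUMT (SE 0.0317, 95% interval 0.07 to 0.20, adjusted p = 0.00599). Of all tested genes, 35.7% and 31.5% were at least as far up. In sh1-HUMT, PER1 no longer passed without shNC replicate 1 (0.10, adjusted p = 0.0799), without shNC replicate 3 (0.10, adjusted p = 0.0720), and without sh1-HUMT replicate 1, 2 or 3 (0.10, 0.09 and 0.10, with adjusted p = 0.0681, 0.0627 and 0.0698). With an offset for GC content and transcript length the PER1 values were 0.02 and 0.01 and passed in neither comparison (adjusted p = 0.622 and 0.878), whereas limma on the deposited FPKM gave 0.25 and 0.26.

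PER1 counts and deposited FPKM (scaled by transcript length and library size) therefore gave different sizes. The FPKM fit did not use the library scaling of the CPM. Its median gene was shifted up by 0.052 in sh1-HUMT and 0.045 in sh2-HUMT on the log2 scale, so the gap is not one of length alone. The length implied by each pair of values was 5.67, 5.59 and 5.62 kb in shNC, 5.30, 5.15 and 5.28 kb in sh1-HUMT, and 5.31, 5.34 and 5.34 kb in sh2-HUMT, so every hairpin library was below every control library. The mean was 6.81% and 5.23% below shNC. Among 8969 genes with a mean of at least 5 FPKM, all 6 hairpin libraries were below all shNC libraries in 11.3%, the implied length was shorter by at least 5% in both groups in 2.95%, and the median difference was -0.102% and -0.0614%. BHLHE41, the gene with the fewest counts, differed by more (-7.50% and -8.20%), and the other 8 clock genes by at most 4.65%. Which transcripts of PER1 were counted was not tested.

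PER3, the period gene with the lowest level, gave values on the other side. PER3 stood at 12.9, 14.4 and 15.4 CPM in shNC, at 12.2, 12.4 and 13.0 CPM in sh1-HUMT, and at 12.7, 12.5 and 11.9 CPM in sh2-HUMT. All sh2-HUMT libraries lay below all control libraries, while sh1-HUMT overlapped shNC at 1 library. The log2 fold change was -0.18 (95% interval -0.36 to -0.01, edgeR adjusted p = 0.101) in sh1-HUMT and -0.20 (95% interval -0.38 to -0.03, adjusted p = 0.0708) in sh2-HUMT. It passed in both without shNC replicate 1 (-0.24, adjusted p = 0.0471; -0.26, adjusted p = 0.0345) and with the GC content and length offset (-0.25 and -0.24). The annotation has 10.7% of PER3 exon bases overlapping UTS2 on the other strand, and counting is not stated to use strand.

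The cryptochromes, the stable partners of the PER proteins and direct repressors of CLOCK and ARNTL, passed in neither comparison. CRY1 stood at 16.9, 16.7 and 15.9 CPM in shNC, at 15.7, 16.6 and 16.9 CPM in sh1-HUMT, and at 15, 15.3 and 16.1 CPM in sh2-HUMT. The CRY1 groups overlapped, with log2 fold changes of -0.01 (95% interval -0.15 to 0.13, edgeR adjusted p = 0.923) and -0.10 (95% interval -0.23 to 0.04, adjusted p = 0.281). CRY2 stood at 14.2, 14 and 10.3 CPM in shNC, at 14.7, 12.4 and 15.9 CPM in sh1-HUMT, and at 13.6, 14.3 and 14.4 CPM in sh2-HUMT. The third control library was the lowest of all 9 for CRY2, and the groups overlapped. Its log2 fold changes were 0.16 (95% interval -0.11 to 0.44, adjusted p = 0.365) and 0.14 (95% interval -0.14 to 0.41, adjusted p = 0.445). A rise of the size of PER2 in sh1-HUMT (0.48) lies outside the intervals of both CRY genes. The interval of that PER2 value (0.38 to 0.58) overlaps those of CRY2, however. The PER2 value in sh2-HUMT (0.42) lies within the CRY2 interval in sh1-HUMT.

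Of the paired nuclear receptors, NR1D2 fell in both hairpin groups, and NR1D1 passed the test in sh1-HUMT. NR1D2 stood at 64.7, 65.7 and 65.0 CPM in shNC, at 52.2, 48.8 and 54.1 CPM in sh1-HUMT, and at 49.0, 47.5 and 50.1 CPM in sh2-HUMT, with every hairpin library well below every control library. NR1D2 fell 1.26-fold in sh1-HUMT (log2 fold change -0.33, SE 0.0428, 95% interval -0.43 to -0.24, edgeR adjusted p = 1e-04) and 1.33-fold in sh2-HUMT (-0.41, SE 0.0430, 95% interval -0.51 to -0.32, adjusted p = 1.64e-05). NR1D2 passed under all 19 alternatives in both comparisons. NR1D1 stood at 79.2, 76.2 and 84.6 CPM in shNC, at 70.9, 71.9 and 75.5 CPM in sh1-HUMT, and at 77.4, 79.4 and 75.2 CPM in sh2-HUMT. Only sh1-HUMT lay wholly below the controls. The log2 fold change of NR1D1 was -0.14 in sh1-HUMT (SE 0.0436, 95% interval -0.23 to -0.04, adjusted p = 0.0315) and -0.05 in sh2-HUMT (adjusted p = 0.440). Between the hairpin groups the difference was 0.09 (adjusted p = 0.465), so they were not shown to differ in NR1D1.

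The NR1D1 call did not hold when some single libraries were left out. It was lost without shNC replicate 1 (-0.14, edgeR adjusted p = 0.0670), shNC replicate 3 (-0.09, adjusted p = 0.145), sh1-HUMT replicate 1 (-0.12, adjusted p = 0.115) or sh1-HUMT replicate 2 (-0.13, adjusted p = 0.0721), and limma on FPKM gave -0.06 (adjusted p = 0.291). In the annotation 9.49% of NR1D1 exon bases overlap THRA, the thyroid hormone receptor gene on the opposite strand. THRA rose by 0.27 on the log2 scale in both comparisons (adjusted p = 2.82e-04 and 2.44e-04). What THRA reads add to the NR1D1 counts was not tested.

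BHLHE40, a repressor that binds E-boxes and is itself induced by many stimuli, had the smallest adjusted p of the clock genes. It stood at 458, 444 and 461 CPM in shNC, at 307, 321 and 319 CPM in sh1-HUMT, and at 307, 316 and 313 CPM in sh2-HUMT. The control libraries stood apart from all hairpin libraries, which overlapped each other. BHLHE40 fell 1.44-fold in sh1-HUMT (log2 fold change -0.53, SE 0.0267, 95% interval -0.58 to -0.47, edgeR adjusted p = 4.09e-08) and 1.46-fold in sh2-HUMT (-0.54, SE 0.0267, 95% interval -0.60 to -0.48, adjusted p = 2.71e-08). Of all tested genes, 6.94% and 5.90% were at least as far down. BHLHE40 passed under all 19 alternatives in both comparisons.

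Its paralog BHLHE41 was the scarcest of the clock genes, with 47 to 77 counts in a library. BHLHE41 stood at 2.96, 3.55 and 3.39 CPM in shNC, at 2.18, 2.70 and 2.10 CPM in sh1-HUMT, and at 2.92, 2.76 and 2.42 CPM in sh2-HUMT. Neither hairpin group overlapped shNC, although the highest sh2-HUMT library was close to the lowest control. The log2 fold change was -0.50 in sh1-HUMT (SE 0.171, 95% interval -0.88 to -0.13, edgeR adjusted p = 0.0410) and -0.29 in sh2-HUMT (95% interval -0.66 to 0.08, adjusted p = 0.223). In sh1-HUMT, BHLHE41 no longer passed without shNC replicate 2 or 3 (-0.44 and -0.48), without sh1-HUMT replicate 1 or 3 (-0.46 and -0.43), and without sh2-HUMT replicate 1 or 2 (both -0.50), with adjusted p from 0.0516 to 0.125. It was lost in 11 of 19 alternatives in all, which include DESeq2 (adjusted p = 0.0844), no filter on low counts (0.0624 as adjusted p) and limma on FPKM (-0.30, adjusted p = 0.119).

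DBP, the output factor whose gene is a direct CLOCK and ARNTL target, rose modestly. DBP stood at 37.0, 36.1 and 38.2 CPM in shNC, at 40.9, 43.7 and 38.3 CPM in sh1-HUMT, and at 42.9, 43.4 and 44.9 CPM in sh2-HUMT. The lowest sh1-HUMT library was only just above the highest control, whereas sh2-HUMT stood clear of it. The log2 fold change was 0.14 in sh1-HUMT (SE 0.0511, 95% interval 0.03 to 0.26, edgeR adjusted p = 0.0492) and 0.24 in sh2-HUMT (SE 0.0509, 95% interval 0.13 to 0.35, adjusted p = 0.00344). The sh1-HUMT call was lost in 14 of 19 alternatives. It was lost without shNC replicate 1, 2 or 3 (0.14, 0.13 and 0.17), without sh1-HUMT replicate 1 or 2 (0.15 and 0.10), and without sh2-HUMT replicate 1, 2 or 3 (0.14, 0.15 and 0.14), with adjusted p from 0.0516 to 0.167. With the GC content and length offset the values were 0.05 (adjusted p = 0.492) and 0.13 (adjusted p = 0.0707), and neither passed. In the annotation 10.1% of DBP exon bases overlap SPHK2 on the other strand, which passed in neither comparison.

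**Figure D2:**
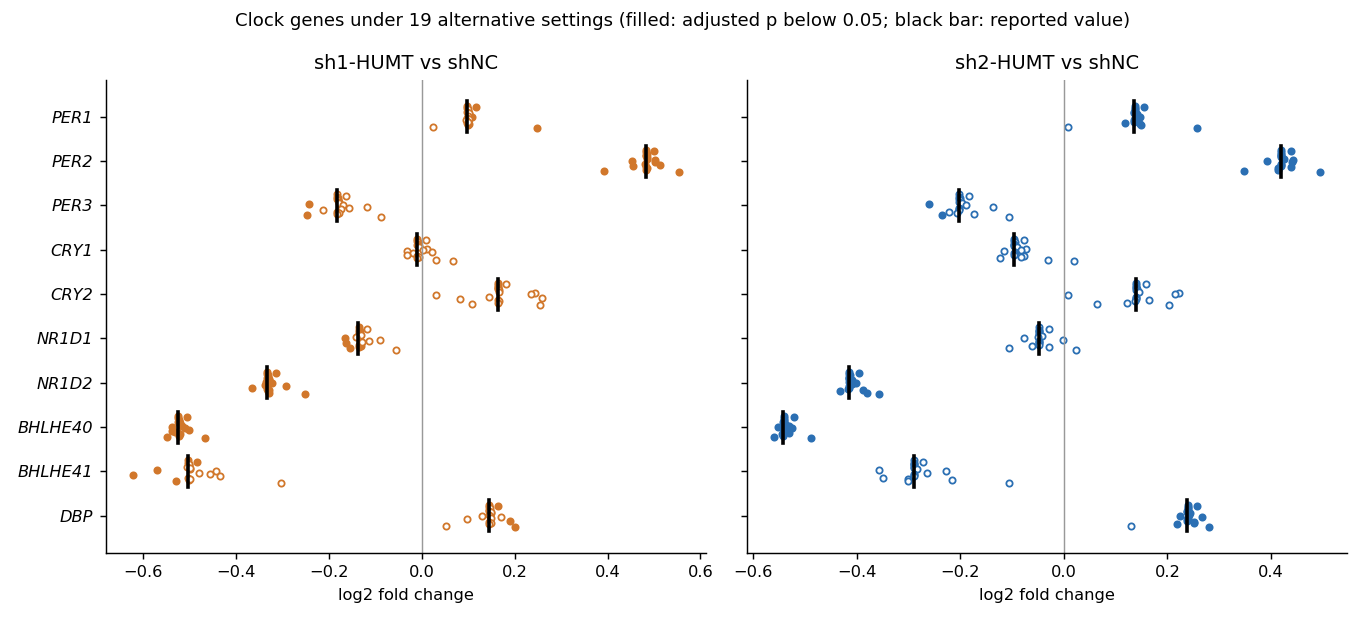
Log2 fold change against shNC (horizontal axes) of each clock gene in sh1-HUMT and sh2-HUMT under 19 alternative settings; each point is 1 setting, filled where the adjusted p is below 0.05, and the black bar is the reported value. PER2, NR1D2 and BHLHE40 are filled throughout, while PER1 and DBP in sh1-HUMT are mostly open.

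In both comparisons the same 5 clock genes were called the same way, 3 higher (PER1, PER2 and DBP) and 2 lower (NR1D2 and BHLHE40), where 25.1% of all tested genes were (12.3% higher and 12.8% lower). Between sh2-HUMT and sh1-HUMT, 0 of 10 passed in edgeR or under any of 19 alternatives, DESeq2 included, and 0 had an unadjusted p under 0.05. The smallest adjusted p was 0.465, and 0.286% of all genes passed in that comparison. The intervals of these differences reached from -0.30 to 0.59 on the log2 scale over the 10 genes, the widest for BHLHE41. PER1 was the 1 gene whose 2 hairpin groups did not overlap, with sh2-HUMT above sh1-HUMT, where 18.4% of all tested genes did not overlap. Its difference was 0.04 (adjusted p = 0.692).

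On the FPKM scale, which divides by transcript length and so allows levels of different genes to be set in order, BHLHE40 was far above the rest. In shNC the mean FPKM was 144 for BHLHE40, 27.5 for NR1D1, 20.2 for DBP, 12.2 for NR1D2, 11.6 for PER1, 5.71 for PER2, 5.39 for CRY1, 2.83 for CRY2, 2.09 for PER3 and 0.747 for BHLHE41. PER2 and CRY1 were the 1 pair of neighbours whose shNC libraries overlapped. NR1D2 and PER1 were nearly level there, with the lowest NR1D2 library at 11.96 FPKM and the highest PER1 library at 11.92. In the hairpin groups the order changed at a single step, since PER1 (13.8 FPKM in sh1-HUMT and 13.9 in sh2-HUMT) stood above NR1D2 (10.2 and 9.48). The shorter implied length of PER1 in the hairpin groups enters these FPKM values. PER2, at 8.43 and 8.08 FPKM, no longer overlapped CRY1, at 5.63 and 5.45.

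**Figure D3:**
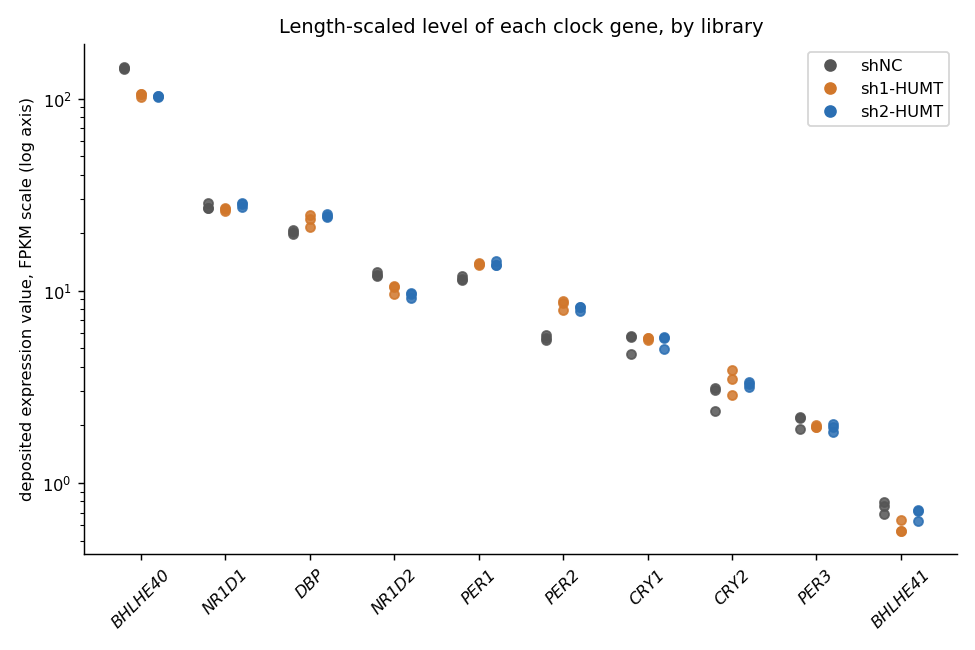
Deposited expression value of each clock gene in each library on the FPKM scale (vertical log axis), ordered by the shNC mean; points are libraries, coloured by group. BHLHE40 lies highest, BHLHE41 lowest, and PER1 and NR1D2, nearly level in shNC, exchange places between shNC and the hairpin groups.

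Of the 5 genes called the same way in both comparisons, the start regions of 4 are shown because they hold the clock's own binding sequence in different forms. The window of DBP, which also rose, held none of the motifs searched and is not shown. Each window runs from 250 bases before to 50 bases after the annotated start (RefSeq, GRCh38.p14), 5′ to 3′ on the gene's strand, with motif matches in capitals. PER1 (chr17:8152355-8152654, minus strand) has the E-box CACGTG and TGACCT, the reverse complement of the nuclear receptor core AGGTCA. PER2 (chr2:238288561-238288860, minus strand) has CACGTT, its known E-box variant, and the CRE core TGACG. NR1D2 (chr3:23945871-23946170, plus strand, the downstream of its 2 windows) has a pair of E-boxes, TGACG at 2 places and TTACATAA, the reverse complement of the D-box TTATGTAA. BHLHE40 (chr3:4979187-4979486, plus strand) has 1 E-box near its upstream end.
PER1: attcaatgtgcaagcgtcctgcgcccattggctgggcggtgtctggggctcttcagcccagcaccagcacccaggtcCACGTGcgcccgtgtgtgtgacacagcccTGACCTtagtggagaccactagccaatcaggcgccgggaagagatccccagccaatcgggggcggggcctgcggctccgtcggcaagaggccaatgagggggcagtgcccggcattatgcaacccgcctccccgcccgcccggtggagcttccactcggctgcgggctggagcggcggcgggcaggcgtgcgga
PER2: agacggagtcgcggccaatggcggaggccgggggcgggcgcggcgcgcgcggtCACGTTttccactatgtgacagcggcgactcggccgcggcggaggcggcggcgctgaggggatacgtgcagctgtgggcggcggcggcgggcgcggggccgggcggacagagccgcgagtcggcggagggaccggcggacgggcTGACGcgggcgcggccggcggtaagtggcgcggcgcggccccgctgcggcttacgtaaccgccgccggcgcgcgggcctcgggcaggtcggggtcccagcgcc
NR1D2: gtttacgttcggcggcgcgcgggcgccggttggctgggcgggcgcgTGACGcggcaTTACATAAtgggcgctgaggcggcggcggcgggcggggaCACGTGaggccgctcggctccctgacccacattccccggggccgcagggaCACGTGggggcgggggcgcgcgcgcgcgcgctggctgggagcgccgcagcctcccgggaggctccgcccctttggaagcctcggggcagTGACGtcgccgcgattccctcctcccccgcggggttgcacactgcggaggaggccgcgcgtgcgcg
BHLHE40: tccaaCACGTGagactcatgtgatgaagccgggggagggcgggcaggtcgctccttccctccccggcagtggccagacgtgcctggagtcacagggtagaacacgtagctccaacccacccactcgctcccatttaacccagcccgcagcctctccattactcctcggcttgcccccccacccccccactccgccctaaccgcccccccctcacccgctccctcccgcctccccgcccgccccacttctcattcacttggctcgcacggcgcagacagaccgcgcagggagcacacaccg
Of the windows shown, those of PER1, NR1D2 and BHLHE40 held CACGTG. Any part of these letters in the changes of the genes was not tested.

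Over all 10 clock genes, which have 13 windows, the E-box CACGTG was found on either strand in 4 (PER1, NR1D2, BHLHE40 and BHLHE41), beside 7.26% of 35116 RefSeq windows of the same length. The variant CACGTT was found in 4 others (PER2, CRY1, CRY2 and NR1D1), beside 5.34% of windows. The CRE core TGACG, part of the site bound by CREB, was found in 4 genes (PER2, CRY1, CRY2 and NR1D2). These matches lay in 6 of the 13 windows, beside 24.6% of all windows. The full palindrome TGACGTCA, which contains that core, was in none of them and in 1.85% of windows. The D-box, searched only as the exact letters TTATGTAA, was found in PER3 and NR1D2, in 2 of the 13 windows, beside 0.886% of all. Other forms, such as the ttacgtaa in the PER2 window, were not searched. AGGTCA was found in PER1 and CRY2, in 3 of the 13 windows, beside 13.8% of all. The heat shock element core GAANNTTC was in none of the 13 windows and in 6.77% of all. DBP had no match to any of these. A match is a description of the letters and was not tested for binding.

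Of the 4 activators on the positive side of the loop, ARNTL2 passed the test and CLOCK, ARNTL and NPAS2 did not. CLOCK stood at 19.8 ± 1.4, 20.6 ± 0.361 and 20.6 ± 0.558 CPM in shNC, sh1-HUMT and sh2-HUMT (SD, n = 3), and its partner ARNTL at 20.1 ± 0.873, 20.7 ± 1.18 and 20.5 ± 1.55 CPM. Their log2 fold changes lay between 0.02 and 0.06, with edgeR adjusted p from 0.533 to 0.833. NPAS2, the CLOCK paralog, had far more counts at 282 ± 6.63, 274 ± 5.36 and 272 ± 2.95 CPM and log2 fold changes of -0.04 and -0.05 (adjusted p = 0.277 and 0.17). With the GC content and length offset NPAS2 passed in both (-0.14 and -0.12). ARNTL2, the ARNTL paralog, was the 1 activator of 4 that fell: 31.9, 28.8 and 31.2 CPM in shNC became 26.1, 26.8 and 27.2 CPM in sh1-HUMT and 26.1, 23.8 and 24.1 CPM in sh2-HUMT. No hairpin library of ARNTL2 reached the lowest control. Its log2 fold changes were -0.20 (adjusted p = 0.0152) and -0.31 (adjusted p = 9.31e-04). In sh1-HUMT, ARNTL2 no longer passed without shNC replicate 1 (-0.16), shNC replicate 3 (-0.18) or sh1-HUMT replicate 1 (-0.18), with adjusted p from 0.0525 to 0.0694.

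Of the factors that share the D-box with DBP, the repressor NFIL3 (E4BP4) fell most. NFIL3 stood at 68.2, 68.5 and 68.2 CPM in shNC, at 41.7, 39.6 and 38.2 CPM in sh1-HUMT, and at 40.5, 39.5 and 38.8 CPM in sh2-HUMT. All hairpin libraries lay far below the control libraries, and the hairpin groups overlapped each other. The falls were 1.71-fold and 1.72-fold (log2 fold changes -0.78 and -0.79, edgeR adjusted p = 5.25e-08 and 4.26e-08). Of all tested genes, 3.52% and 3.03% were at least as far down. The PAR bZIP activator HLF stood at 5.69 ± 0.614, 4.58 ± 0.114 and 4.26 ± 0.365 CPM, with log2 fold changes of -0.31 (adjusted p = 0.0676) and -0.42 (adjusted p = 0.0199). The HLF call in sh2-HUMT was lost without shNC replicate 2 (-0.32), sh2-HUMT replicate 2 (-0.41) or sh2-HUMT replicate 3 (-0.36), and was -0.13 on FPKM. TEF, the remaining PAR bZIP activator, passed in neither (-0.10 in both). RORA, a receptor that competes with NR1D1 and NR1D2 for the same sites, passed in neither (log2 fold changes -0.0042 and -0.13, adjusted p = 0.983 and 0.420), and RORB was too low to be tested.

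**Figure D4:**
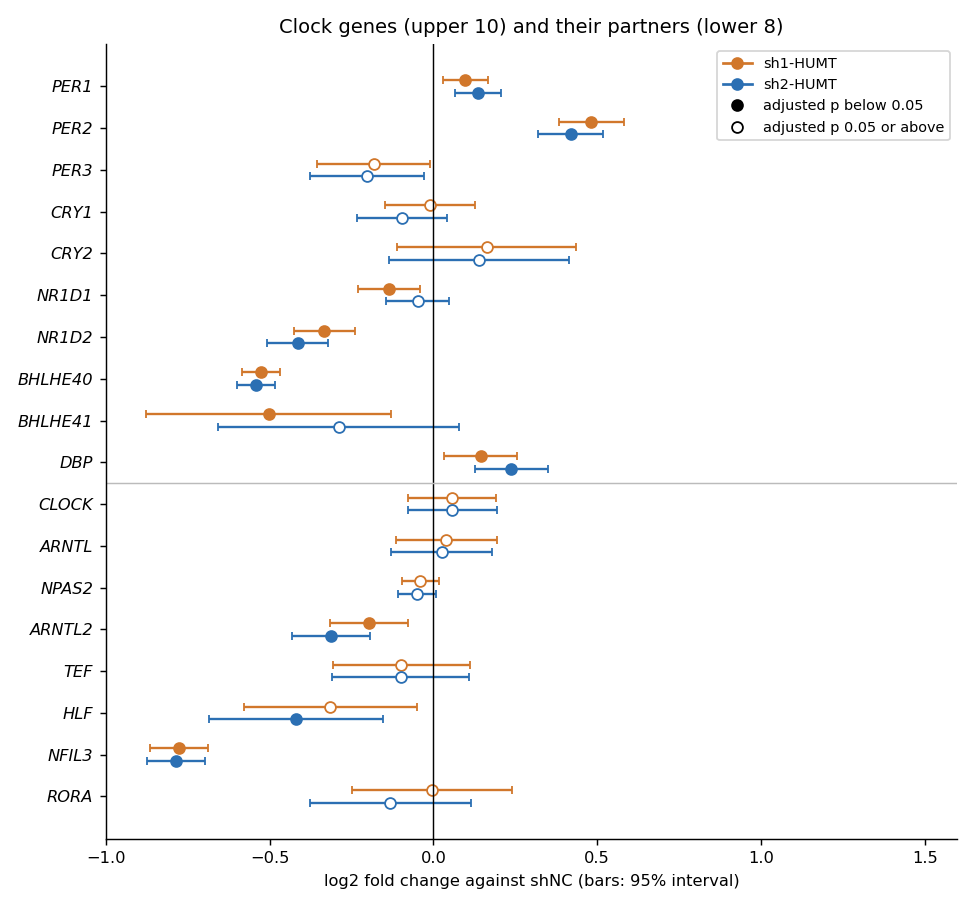
Log2 fold change against shNC with its 95% interval (horizontal axis) for the 10 clock genes and 8 partner genes, filled where the edgeR adjusted p is below 0.05. The partners with filled points in both groups are ARNTL2 and NFIL3, both left of 0, and CLOCK and ARNTL lie at 0.

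Genes that act on the clock proteins included some that rose and some that fell, at shares to be read against the 31.9% (sh1-HUMT) and 32.5% (sh2-HUMT) of all tested genes that passed, which split about evenly by direction. Of 14 kinases and turnover factors, 2 were higher and 4 lower in sh1-HUMT, and 1 higher and 3 lower in sh2-HUMT, with median log2 fold changes of -0.05 and -0.03. HUWE1, a ubiquitin ligase, rose in both (log2 fold change 0.41 and 0.27), and SIAH2, another ubiquitin ligase, fell in both (-0.63 and -0.59). Of 9 PER and CRY complex members and corepressors, 2 were higher and 4 lower in sh1-HUMT, and 2 higher and 3 lower in sh2-HUMT. CIPC, an inhibitor of CLOCK, rose by 0.30 and 0.32. SIRT1, a deacetylase linked to PER2, fell by 0.21 and 0.30, and in sh1-HUMT it no longer passed without sh1-HUMT replicate 1 (-0.17, edgeR adjusted p = 0.0551). Of 8 clock output genes, 0 were higher, and 3 were lower in sh1-HUMT and 4 in sh2-HUMT. Among these, KLF10, a zinc finger repressor, fell by 0.73 and 0.85, the mitotic kinase gene WEE1 by 0.63 and 0.59, and NAMPT, which makes the NAD precursor NMN, by 0.25 and 0.30.

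Genes induced by the stimuli that also induce PER1 and PER2 moved with the groups, most of them opposite to PER1 and PER2. Of 16 immediate early and CREB-responsive genes, 13 were lower and 1 higher in sh1-HUMT, and 14 lower and 1 higher in sh2-HUMT. Their median log2 fold changes were -1.79 and -1.82. Among all tested genes, 16.3% and 16.5% were called lower and 15.7% and 15.9% higher. FOS stood at 207, 216 and 208 CPM in shNC and between 12.5 and 14.2 CPM in the hairpin libraries, and EGR1 at 325, 321 and 332 CPM against 4.71 to 6.57 CPM. The 1 higher gene was NR4A2, at 8.34 ± 0.225 CPM in shNC, 11 ± 1.34 in sh1-HUMT and 10.4 ± 1.33 in sh2-HUMT (SD, n = 3). All 8 heat shock genes were lower in both comparisons, with medians of -2.32 and -2.23. Of the clock genes called the same way in both comparisons, BHLHE40 and NR1D2 were lower and PER1, PER2 and DBP higher. PER1 and DBP did not pass with the GC content and length offset. The part of these stimuli in the clock gene values was not tested.

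Glucocorticoid-responsive genes, another input to PER1, were split. The counts in this paragraph stand beside 31.9% (sh1-HUMT) and 32.5% (sh2-HUMT) of all tested genes called, about evenly by direction. Of 7, 2 were higher and 3 lower in both comparisons, with ERRFI1, a feedback inhibitor of EGFR, at -0.80 and -0.82, TSC22D3 (GILZ) at -0.44 and -0.48, and the transcription factor CEBPD at 0.25 and 0.47. FKBP5, a widely used glucocorticoid marker, passed in neither (0.04 and -0.02). Of 10 hypoxia genes, a list set here because BHLHE40 is a known HIF target, 2 were higher and 7 lower in sh1-HUMT, and 2 higher and 6 lower in sh2-HUMT, with medians of -0.40 and -0.37. ADM, the adrenomedullin gene, fell by 1.2 and 1.16, and VEGFA stood at 115 ± 2.88 CPM in shNC, 79.2 ± 0.914 in sh1-HUMT and 83.2 ± 1.49 in sh2-HUMT. The 2 higher genes were CA9, which rose by 0.29 and 0.31, and EGLN3. The part of these inputs in the clock gene values was not tested.

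**Figure D5:**
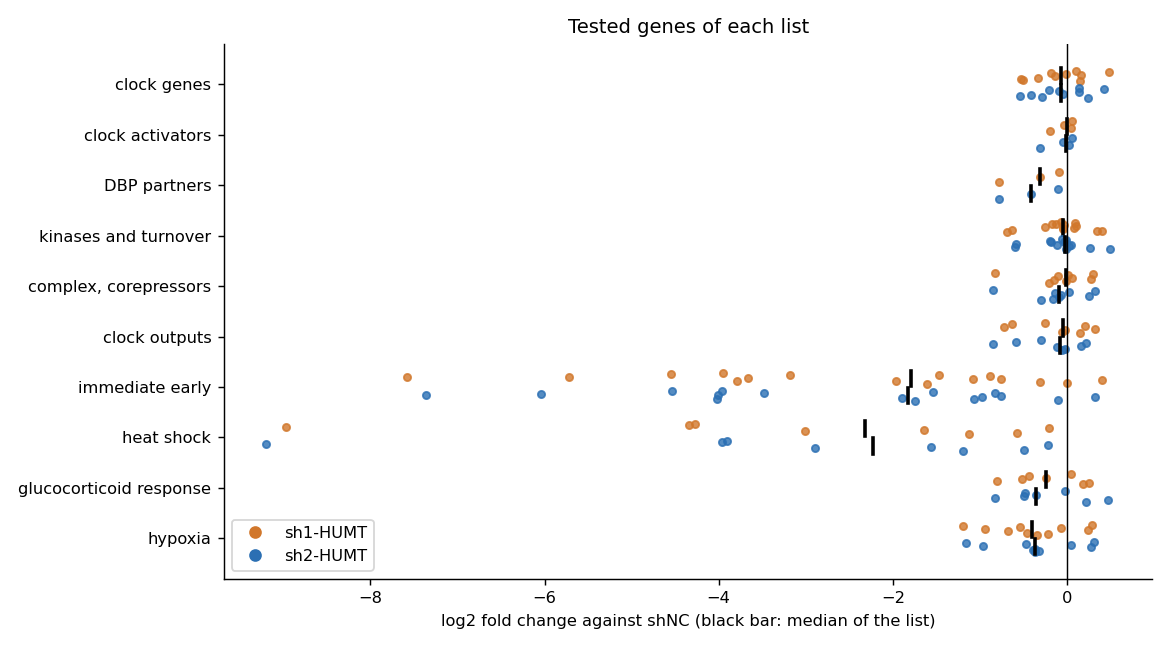
Log2 fold change against shNC (horizontal axis) of each tested gene of the clock and input lists, sh1-HUMT and sh2-HUMT on separate lines; the black bar is the median of the list. The clock genes lie within 0.6 of 0, whereas the immediate early and heat shock genes reach far below it, with medians from -1.79 to -2.32.

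Outside the clock, the closest profiles over the 9 libraries were found for each gene called in both comparisons, as the smallest root mean square difference of log2 CPM after setting each gene to its own shNC mean, among 12551 genes with at least 5 CPM. For PER2 these were UBR4, a large ubiquitin ligase, at 0.0222, ZKSCAN1 at 0.0276 and IL1R1 at 0.0280. UBR4 stood at 221 ± 11.3 CPM in shNC, 309 ± 16.8 in sh1-HUMT and 296 ± 3.03 in sh2-HUMT (SD, n = 3). For BHLHE40 they were the RNA helicase gene DDX5 at 0.0242, DUSP12 at 0.0401 and ETF1 at 0.0404, with DDX5 at 472 ± 12.5, 332 ± 2.78 and 322 ± 5.61 CPM. NR1D2 was most like UHRF2 (0.0342), CHTOP (0.0374) and AZIN1 (0.0378). PER1 was most like PRC1 (0.0175), CDC25B (0.0204) and CAMKK1 (0.0226). DBP was most like MAPK3 (0.0329), SLC27A1 (0.0357) and CNNM2 (0.0374). All genes in such a comparison share the same libraries and scaling, so these values are a description.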

How the data were processed

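RNA sequencing of 9 PC9/GR libraries was read from 1 deposited table of 27059 genes. The authors deposited estimated counts with 2 decimals and an expression value per gene and library, which behaves as FPKM although the file headers do not name its unit. RSEM 1.2.12, HISAT2 2.0.4, DESeq2 1.4.5 and Bowtie2 2.2.5 are listed, with no role stated, per the submitters' processing notes. Their genome build was not given in sources used here. Columns were matched to sample titles by arm and replicate number; 6 columns of group averages were not used.

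Counts were rounded and tested with edgeR 4.0.16 in R 4.3.3: TMM (factors 0.968 to 1.02), filterByExpr (18540 genes kept), robust quasi-likelihood test, 3 group means over 9 libraries, Benjamini-Hochberg adjustment and a threshold of 0.05. CPM uses TMM-scaled totals, and the common biological coefficient of variation was 7.02%. The clock genes and all lists were chosen with earlier results of these data known.

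The text names the clock genes, the target, all activators, ROR receptors and DBP partners, up to 4 called genes of each other list, and the 3 nearest profiles; some genes taken by this rule are not reported here. NR4A2, CA9, EGLN3, THRA, SPHK2, UTS2 and USP7 were added after values or overlaps were seen. Alternatives were DESeq2 1.42.0, its size factors, upper-quartile scaling, no filter, a mean count of at least 10, a replicate block, only the 2 groups compared, removal of the 2 most abundant entries and each library left out. A GC content and length offset (85.8% of tested genes have both values) and limma 3.58.1 on log2(FPKM + 0.1), which understates changes of low genes, were chosen after seeing the data. Overlaps come from GENCODE exons (GRCh38).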

Additional observations from a re-analysis of the deposited data

Results flagged for a closer look

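Some genes of the clock and input lists differed between the hairpin groups themselves. The difference of sh2-HUMT from sh1-HUMT was -0.3034 on the log2 scale for JUN, the AP-1 subunit (edgeR adjusted p = 0.0165), with 40.0 ± 2.24 CPM in sh1-HUMT and 32.4 ± 1.25 CPM in sh2-HUMT (SD, n = 3). It was 0.3709 (edgeR adjusted p = 0.00232) for HSPA1A and 0.3887 (adjusted p = 0.0213) for HSPA1B, heat shock chaperone genes that are near-identical copies, so reads can be split between them. These genes were far below shNC in both hairpin groups. Against shNC, the log2 fold changes in sh1-HUMT and sh2-HUMT were -3.176 and -3.479 for JUN, -4.274 and -3.903 for HSPA1A, and -4.345 and -3.957 for HSPA1B. USP7, a deubiquitinase known to act on CRY proteins, differed by 0.6808 (adjusted p = 0.0486). USP7 stood at 48.2, 40.8 and 52.4 CPM in shNC, at 31.7, 30.7 and 25.0 CPM in sh1-HUMT, and at 46.4, 46.1 and 47.8 CPM in sh2-HUMT. It was thus lower in sh1-HUMT (-0.69, adjusted p = 9.65e-04) and not called in sh2-HUMT (-0.01, adjusted p = 0.950). Of these 4 calls, HSPA1A passed under all 19 alternatives (0.33 to 0.40). JUN passed in 14 and was lost without sh2-HUMT replicate 1, 2 or 3 (-0.28, -0.29 and -0.34). HSPA1B passed in 11 and was lost without shNC replicate 1 (0.39), sh1-HUMT replicate 1 (0.36) or sh2-HUMT replicate 1, 2 or 3 (0.39, 0.41 and 0.36). USP7 passed in 9 and was lost without shNC replicate 1 (0.68) or any library of sh1-HUMT (0.58 to 0.74) or sh2-HUMT (0.66 to 0.69). None of the 10 clock genes passed in this comparison.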

How the results depend on the processing

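PER2, NR1D2 and BHLHE40 kept their direction and their call in both comparisons under all 19 alternatives, with log2 fold changes of 0.39 to 0.55 and 0.35 to 0.50 for PER2, -0.37 to -0.25 and -0.43 to -0.36 for NR1D2, and -0.55 to -0.47 and -0.56 to -0.49 for BHLHE40. The clock genes called higher in sh1-HUMT were 3 as reported and 1 with DESeq2, without a filter, with the replicate block, with only the 2 groups compared and with the GC content and length offset. Leaving out single libraries gave 1 to 2. Those called lower in sh1-HUMT were 4 as reported, 2 with only the 2 groups compared and with limma on FPKM, 3 with upper-quartile scaling, DESeq2, no filter and the replicate block, 5 with the GC content and length offset, and 2 to 4 with libraries left out. In sh2-HUMT the 3 called higher became 1 with the GC content and length offset, which left PER2. The cause was not tested. Genes called between the hairpin groups numbered 53 as reported, 366 with DESeq2, 29 with the replicate block, 35 with only the 2 groups compared, 9 with limma on FPKM, and 1 to 155 with libraries left out. None of these settings called a clock gene there. CNNM2 turned from higher to -0.01 (-0.0071) in sh1-HUMT under the GC content and length offset.

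Of all genes called, 49.0% and 49.1% were higher in sh1-HUMT and sh2-HUMT, against 60.5% and 58.5% with limma on FPKM. That fit used no TMM scaling, and its median gene was shifted by 0.052 and 0.045 on the log2 scale. Same-numbered libraries deviated together little if at all (correlations from -0.0258 to 0.105, beside -0.117 to 0.0958 for libraries of different number). Whether same numbers mark paired samples is not settled by these values, since weak correlations cannot show that a pairing is absent. The replicate block, which left 5717 and 5778 genes called against shNC, is given only here. With 47 to 77 counts, BHLHE41 is the clock gene most limited by depth.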
